A study of Mus musculus with 16 samples.

Results

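The 10 genes described here encode the cadherins, surface and matrix proteins and transcription factors by which epithelial and mesenchymal states are told apart: Cdh1, Epcam, Cdh2, Cdh11, Vim, Fn1, Zeb1, Zeb2, Snai1 and Snai2. They were chosen by name, with earlier results of these data known. All 10 were found among the 21455 entries of the table that carry a gene symbol. RNA was sequenced from 16 libraries of E14tg2a cells, a mouse embryonic stem cell line that grows without feeder cells, in 8 groups of 2 libraries each. Wild-type (WT) cells and cells labelled DKO were grown on gelatin in N2B27 with 2 inhibitors (2i), 1 µM of the MEK inhibitor PD0325901 and 3 µM of the GSK3β inhibitor CHIR99021, plus 1000 U/mL LIF, which keeps them naive, and were collected there and after 2 or 4 days of induction towards epiblast-like cells. Induction used N2B27 with bFGF at 12 ng/mL on dishes coated with fibronectin, the protein that Fn1 encodes. Cells labelled P14 were sampled at day 2 and day 4, and no P14 group in 2i medium is analysed here. The series describes WT cells, cells with a deletion in cis of Prdm14 and cells that overexpress Prdm14. The labels do not spell out DKO and P14, so these names were matched to the deletion and the overexpression by elimination. They name no clones and no separate cultures within a group, so the p-values measure the spread between these samples, which may be technical.

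In the GRCm38 annotation Cdh1 lies on chromosome 8 at 106603351 to 106670246 (plus strand) and Cdh11 on the same chromosome at 102632095 to 102785642 (minus strand). Cdh2 (16588877 to 16809246, minus strand) and Zeb1 (5591860 to 5775467, plus strand) share chromosome 18. Zeb2 (44983632 to 45117395, minus strand), Vim (13573927 to 13582826, plus strand) and Snai1 (167538195 to 167542814, plus strand) lie on chromosome 2. Epcam lies on chromosome 17 (87635979 to 87651129, plus strand), Fn1 on chromosome 1 (71585520 to 71653200, minus strand) and Snai2 on chromosome 16 (14705852 to 14709385, plus strand). Some share their locus with other genes of the table. Zeb2os and Apol7d are transcribed from the strand opposite Zeb2 and Fn1, Gm10125 from the strand opposite Zeb1, and Mir5129 lies within Zeb2. The strand setting of the counting is not given in the sources used here, so reads of these pairs may be shared.

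Epithelial cells hold together through E-cadherin (Cdh1), whose extracellular part binds E-cadherin on the neighbouring cell and whose tail binds catenins. In an epithelial to mesenchymal transition E-cadherin gives way to N-cadherin (Cdh2), vimentin filaments and fibronectin matrix are gained, and the zinc finger factors of the ZEB and SNAIL families bind E-box motifs in epithelial genes and repress them. Naive mouse embryonic stem cells and the early epiblast are epithelial in this sense and depend on E-cadherin for compact colonies. In the embryo the switch accompanies gastrulation and the formation of neural tissue, where N-cadherin replaces E-cadherin.

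RefSeq promoter windows (GRCm38.p6, from 250 bases before to 50 bases after a transcript start) were used for 4 of the 10 genes. Those of Epcam, Vim and Zeb2 are shown because, of these 4, their levels differed most widely between the groups below. Capitals mark CAGGTG and its reverse complement CACCTG, the E-box to which ZEB and SNAIL factors are known to bind. Epcam at chr17:87635729-87636028 (plus strand) holds it 2 times, at positions -187 to -182 and -19 to -14 from the start, Vim at chr2:13574061-13574360 (plus strand) holds none, and Zeb2 at chr2:45117393-45117692 (minus strand, the most upstream of its 4 windows) holds none. The Snai1 window at chr2:167537945-167538244 (plus strand) holds 1. Of all 32851 windows of this length, 20.2% hold the motif and 2.88% hold it 2 or more times. A match describes these letters only and says nothing of binding.
Epcam: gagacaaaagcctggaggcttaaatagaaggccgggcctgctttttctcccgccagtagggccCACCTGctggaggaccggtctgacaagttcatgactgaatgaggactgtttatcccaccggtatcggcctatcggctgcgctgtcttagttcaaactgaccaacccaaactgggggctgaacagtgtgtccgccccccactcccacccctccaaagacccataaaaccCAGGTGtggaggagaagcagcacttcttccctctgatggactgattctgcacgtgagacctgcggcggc
Vim: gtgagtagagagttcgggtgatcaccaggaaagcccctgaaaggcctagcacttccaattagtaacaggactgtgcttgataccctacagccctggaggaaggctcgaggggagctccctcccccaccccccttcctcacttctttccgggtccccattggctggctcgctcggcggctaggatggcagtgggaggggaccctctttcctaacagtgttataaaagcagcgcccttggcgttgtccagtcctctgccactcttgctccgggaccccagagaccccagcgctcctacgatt
Zeb2: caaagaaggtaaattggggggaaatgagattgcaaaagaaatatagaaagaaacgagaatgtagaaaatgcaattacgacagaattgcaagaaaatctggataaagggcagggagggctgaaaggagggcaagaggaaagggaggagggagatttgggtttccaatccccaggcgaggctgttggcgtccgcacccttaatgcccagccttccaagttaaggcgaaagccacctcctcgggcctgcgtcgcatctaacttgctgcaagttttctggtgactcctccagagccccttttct

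Values below are normalized read counts, that is, reads of a gene after 1 scaling factor per library. Libraries held 20696334 to 32710556 recovered reads. Group values are mean ± SD with n = 2, differences are log2 differences from limma on log2(value + 1), and p-values are adjusted over all 21450 genes tested with a threshold of 0.05. Prdm14 checks the labels. It stood at 10852 ± 259 and 7534 ± 679 in P14 cells at day 2 and day 4 against 669 ± 61.5 and 193 ± 37.4 in WT cells. In the libraries labelled DKO it was higher, not lower, than in WT cells at every stage (log2 differences of 0.73, 0.97 and 1.61 from the first stage to the last), and the differences below are therefore given for the label, not for a loss of Prdm14. The summed level of 6 embryonic stem cell markers was 34514 to 34846 in WT cells in 2i medium and 3982 to 4383 at day 4, against 12380 to 12754 in DKO-labelled and 8587 to 9051 in P14 cells at day 4. Few reads were assigned to Pou5f1, at 12.1 ± 1.55 in WT cells in 2i medium against 8442 ± 149 for Nanog, so it added little to the sum. The cause of this low count was not tested, and it is not read here as absence of the transcript. Sox2 made up 3288 ± 290 of the WT sum at day 4. From WT 2i medium to day 4 neither Sox2 (-0.19, adjusted p = 0.14) nor Utf1 (0.41, adjusted p = 0.065) passed. The 4 epiblast-like markers went both ways in WT cells from 2i medium to day 4. Fgf5 (14.3 ± 3.5 to 1.08 ± 1.53) and Otx2 (25.1 ± 1.59 to 6.75 ± 5.72) were lower. Pou3f1 (47.1 ± 0.441 to 676 ± 95.6) and Dnmt3b (791 ± 35.7 to 2112 ± 125) were higher. In between, at day 2, Otx2 had reached 169 ± 18.6, Pou3f1 875 ± 95.4 and Dnmt3b 2515 ± 107. Their rises over this first step passed (log2 differences of 2.7, 4.18 and 1.67). Fgf5, at 17.1 ± 1.18, did not pass in that step. The summed level of 5 measured markers of fibroblasts or feeder cells was 79.5 to 288 over all libraries. In WT cells it was 258 to 287 in 2i medium, 85.5 to 117 at day 2 and 287 to 288 at day 4. Dcn, which encodes decorin, was at 0 in 6 of the 8 groups and above 0 in WT cells at day 2 and day 4. These are bulk samples, so fewer cells of a type and less RNA per cell cannot be told apart.

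In WT cells the RNA of Cdh1 fell and that of Cdh2 rose late in the course, between day 2 and day 4. Both were still read at day 4, and bulk samples do not show whether both changed in the same cells. Cdh1 fell 3.67-fold in that step while Cdh2 rose 7.51-fold, and Cdh11 and Zeb2 rose with it. The 10 genes did not all move in the mesenchymal direction. Fn1 fell at each step, Epcam was higher at day 4 than in 2i medium, and Snai1 did not pass the test at any step. In the fit over all genes 4 of the 10 passed from 2i medium to day 2 (23.4% of all genes did), 8 of 10 from day 2 to day 4 (33.0%) and 8 of 10 from 2i medium to day 4 (40.6%).

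Cdh1 read 4870 and 5769 in the WT libraries in 2i medium, 6394 and 5870 at day 2 and 1658 and 1684 at day 4. The level thus held through day 2, where the rise of 0.21 ± 0.13 (SE) did not pass (adjusted p = 0.29), and both day 4 libraries lay below all earlier ones. The fall to 1671 ± 18.5 was -1.87 ± 0.13 against day 2 (adjusted p = 4e-08). Epcam, a surface adhesion molecule of epithelia and of pluripotent cells, took another course. It read 137 and 121 in 2i medium, 858 and 770 at day 2 and 439 and 409 at day 4, with no overlap between the stages. It rose 6.27-fold to day 2 (log2 difference 2.65 ± 0.14, adjusted p = 2.3e-09) and then fell 1.92-fold (-0.94 ± 0.14, adjusted p = 0.0001), which left it 3.27-fold above 2i medium.

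Cdh2 read 300 and 399 in 2i medium, 449 and 555 at day 2 and 3551 and 3976 at day 4. The first step did not pass (0.53 ± 0.19, adjusted p = 0.061), though it did without WT 2i replicate 2 (0.73, adjusted p = 0.038) or either P14 library of day 2 (0.53, adjusted p = 0.027), and the second raised it to 3764 ± 300 (2.91 ± 0.19, adjusted p = 2.4e-08). Markers of neuroectoderm, a tissue that uses N-cadherin, rose in the same step, with 5 of 6 higher and 0 lower (33.0% of all genes passed). Their summed level went from 1007 to 1188 at day 2 to 3216 to 3399 at day 4, and their part in the change of Cdh2 was not tested. Cdh11, a cadherin of mesenchyme and bone-forming cells, was at 0 and 3.39 in 2i medium, at 0 in both libraries of day 2, and at 78.8 and 62.3 at day 4. The day 4 level of 70.5 ± 11.7 was at least 23.2-fold above day 2, with each day 2 library set to a floor of 3 reads, which covers counting error only (adjusted p = 4e-05).

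Per kb of exon, Cdh1 stood at 1340 and Cdh2 at 62.2 in WT cells at day 2, and at 365 and 467 at day 4. The ratio of Cdh2 to Cdh1 per kb can be formed within each library, where scaling between libraries has no part. It was 0.0349 and 0.0392 in WT cells in 2i medium, 0.0398 and 0.0536 at day 2, and 1.21 and 1.34 at day 4. Cdh2 thus passed Cdh1 in both WT libraries of day 4, and the mean ratio of 1.28 ± 0.088 was 27.3 times that of day 2. In DKO-labelled cells the ratio was 0.0977 and 0.109, then 0.117 and 0.142, then 2.53 and 2.56. In P14 cells it was 0.0245 and 0.0432 at day 2 and 0.207 and 0.179 at day 4, so that Cdh1 stayed above Cdh2 in all 4 P14 libraries. With 2 libraries a group an exact test of the ratio cannot go below p = 0.333, and none is given.

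**Figure D1:**
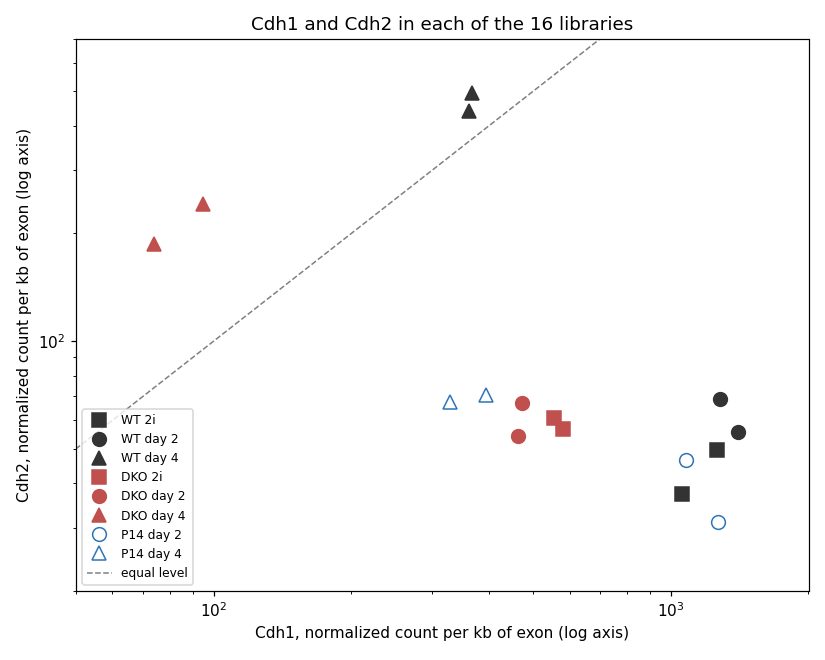
Level of Cdh2 (vertical) against Cdh1 (horizontal) in each of the 16 libraries, both as normalized read count per kb of exon on log axes, with 1 point per library, colour for the label, shape for the stage and a dashed line of equal level. The WT and DKO-labelled libraries of day 4 lie above the line (ratios 1.21 to 2.56), and the P14 libraries of day 4 lie below it (0.179 and 0.207).

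Vim, which encodes the intermediate filament of mesenchymal cells, was abundant from the start. WT libraries read 3477 and 3976 in 2i medium, 4032 and 3471 at day 2 and 6017 and 6621 at day 4. The first 2 stages overlapped, and day 4 lay above both (0.75 ± 0.15 against day 2, adjusted p = 0.0011). Fn1 went the other way. It read 12232 and 15102 in 2i medium, 8945 and 8152 at day 2 and 4842 and 4910 at day 4, without overlap. Its falls were -0.67 ± 0.15 (adjusted p = 0.0043) and -0.81 ± 0.15 (adjusted p = 0.00072). Without WT 2i replicate 2 the first of these did not pass (-0.52, adjusted p = 0.063). Apol7d, on the strand opposite Fn1, fell alongside from 588 ± 91.2 in 2i medium to 211 ± 13.1 at day 4 (-1.47, adjusted p = 0.00067).

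Among the repressors of epithelial genes, Zeb2 rose at each step. WT libraries read 43.2 and 44.9 in 2i medium, 167 and 135 at day 2 and 931 and 928 at day 4. The stages did not overlap, and the differences were 1.74 ± 0.19 (adjusted p = 7.7e-06) and 2.63 ± 0.19 (adjusted p = 7.5e-08). Its antisense neighbour Zeb2os rose in the second step, from 0.942 ± 1.33 to 48.1 ± 14.4 (log2 difference 4.82 ± 0.84, adjusted p = 0.00041). Zeb1 stayed within a narrow range of 390 to 673 in the 6 WT libraries. It read 451 and 390 at day 2 and 515 and 673 at day 4, a difference of 0.49 ± 0.14 that passed (adjusted p = 0.012) but did not without WT day 2 replicate 2 (0.38), without WT day 4 replicate 2 (0.29) or with libraries centred on their median (0.31). Per kb of exon Zeb1 and Zeb2 stood at 41.0 and 7.56 at day 2 and at 57.8 and 46.6 at day 4.

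Snai1 and Snai2, the SNAIL and SLUG genes, were scarce. Snai1 read 10.8 and 27.1 in 2i medium, 13 and 20.7 at day 2 and 35.6 and 39.7 at day 4 in WT cells. Day 4 lay above both earlier stages, but the difference from day 2 did not pass (1.15 ± 0.53, adjusted p = 0.11), and Snai1 passed in 0 of the 13 pairwise comparisons by limma (1 without WT 2i replicate 2, day 4 against 2i medium at 1.71, adjusted p = 0.041). Snai2 read 2.40 and 1.69 in 2i medium, 18.4 and 5.65 at day 2 and 19.4 and 27.1 at day 4. From 2i medium to day 4 it rose by 2.98 ± 0.64 (adjusted p = 0.0015). The call of its first step (1.91 ± 0.64, adjusted p = 0.042) was lost without WT 2i replicate 1 (2.08) or 2 (1.74) or WT day 2 replicate 1 (1.14). Leaving out some libraries of other groups, which share the estimate of the spread, also lost it (1.91 in each case). So did limma-voom on recovered reads (2.08, adjusted p = 0.13) and a pseudocount of 4 (1.28, adjusted p = 0.061).

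**Figure D2:**
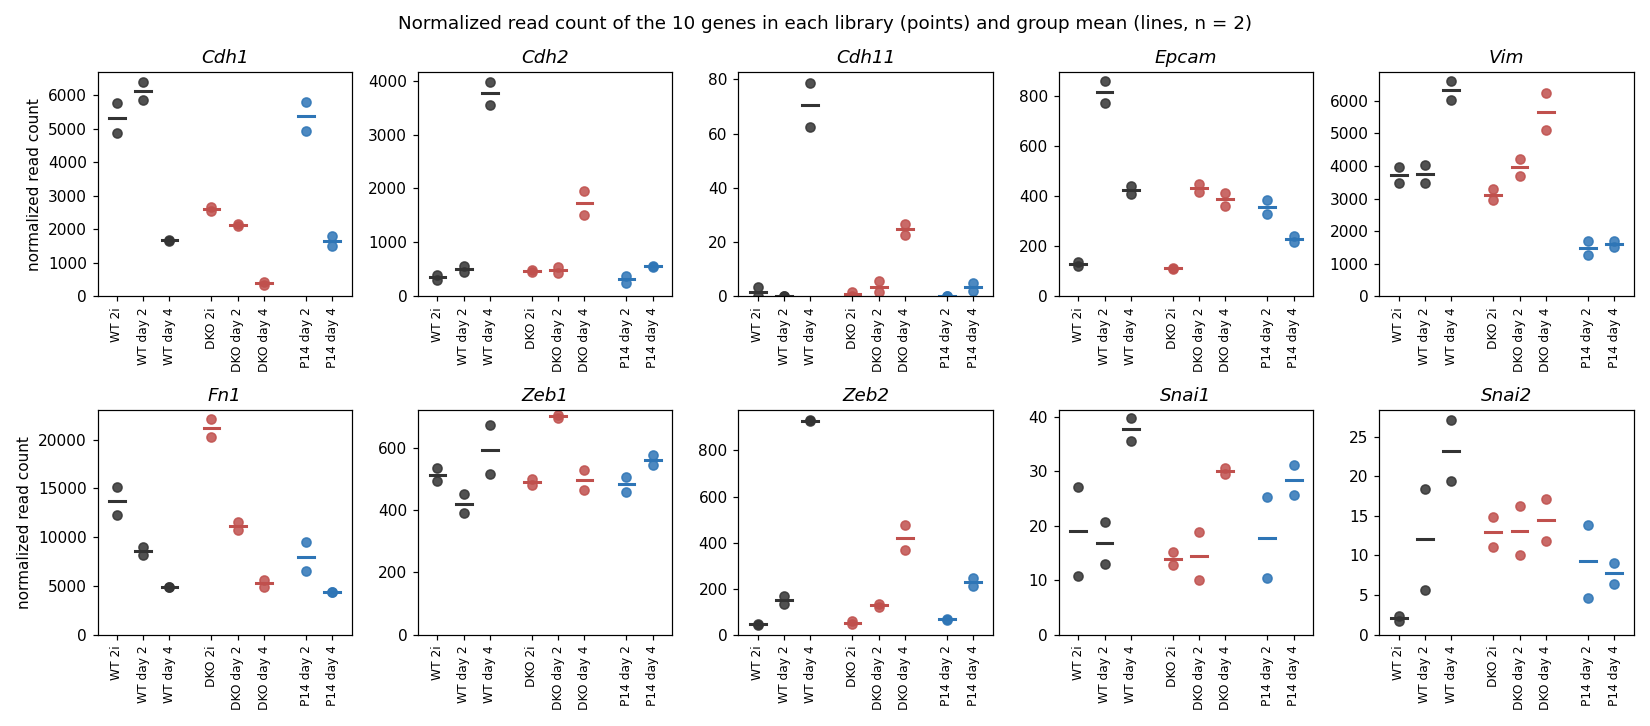
Normalized read count of each of the 10 genes in its own panel (vertical axes start at 0 and differ in scale), with 1 point per library and a line at the group mean (n = 2) for the 8 groups on the horizontal axis. Cdh2, Cdh11 and Zeb2 are highest in WT cells at day 4, Cdh1 lies lowest in DKO-labelled cells at day 4 (386 ± 67.3), and Vim is lowest in P14 cells.

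DKO-labelled cells held less Cdh1 than WT cells at every stage. At day 4 they also held less Cdh2 and Zeb2, while Vim and Fn1 did not pass. Of the 10 genes 3 passed in 2i medium (8.67% of all genes), 3 at day 2 (12.6%) and 3 at day 4 (13.8%).

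Cdh1 read 2657 and 2545 in DKO-labelled libraries in 2i medium, 2112 and 2160 at day 2 and 338 and 433 at day 4. Each pair lay below the WT pair of its stage. The levels were 2.04-fold lower in 2i medium (-1.03 ± 0.13, adjusted p = 0.00017), 2.87-fold lower at day 2 (-1.52 ± 0.13, adjusted p = 1.8e-06) and 4.35-fold lower at day 4 (-2.12 ± 0.13, adjusted p = 3.3e-08). The widening between stages was not itself past the threshold. The difference from WT changed by -0.49 from 2i medium to day 2 (adjusted p = 0.19) and by -0.60 from day 2 to day 4 (adjusted p = 0.059), though the latter passed without DKO day 4 replicate 2 (-0.78, adjusted p = 0.021), without either P14 library of day 2 (-0.60, adjusted p = 0.042) or with an equal total per library (-0.76, adjusted p = 0.0089). Epcam was 1.88-fold below WT at day 2, at 415 and 450 (-0.91 ± 0.14, adjusted p = 0.00047), and overlapped WT at day 4, at 414 and 362.

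Cdh2 in DKO-labelled libraries read 458 and 490 in 2i medium, 436 and 541 at day 2 and 1509 and 1953 at day 4. At day 2 the range overlapped that of WT cells, and at day 4 both libraries lay below WT (-1.13 ± 0.19, adjusted p = 0.0009). The rise from day 2 to day 4 was 1.82 ± 0.19 (adjusted p = 9.8e-06), against 2.91 in WT cells. Neuroectoderm markers summed to 1553 to 1675 in DKO-labelled and 3216 to 3399 in WT libraries at day 4. Of these 6 genes 2 were lower and 0 higher (13.8% of all genes passed), and their part in the level of Cdh2 was not tested. Zeb2 read 45.6 and 59.4, then 122 and 132, then 366 and 476, and was likewise 2.22-fold below WT at day 4 (-1.15 ± 0.19, adjusted p = 0.00084). Cdh11 read 22.6 and 26.7 at day 4, below both WT libraries, but did not pass (-1.47 ± 0.83, adjusted p = 0.28), though it did on recovered reads with limma-voom (-1.48, adjusted p = 0.01).

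Because Cdh1 was low as well, less Cdh2 did not mean a lower ratio in these cells. The mean ratio of Cdh2 to Cdh1 per kb at day 4 was 2.54 ± 0.019 against 1.28 ± 0.088 in WT cells. In 2i medium it was 0.103 ± 0.008 against 0.0371 ± 0.003. At the same day 4 the embryonic stem cell markers were higher in DKO-labelled cells in 5 of 6 cases and lower in 0. Of all genes 13.8% passed there in either direction.

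Fn1 was the most abundant of the 10 genes, per kb of exon too, in DKO-labelled cells in 2i medium (1810 per kb against 569 for Cdh1 and 658 for Vim). Its libraries read 22155 and 20244 there, above both WT libraries (0.64 ± 0.15, adjusted p = 0.015). That call was lost without WT 2i replicate 1 (0.49) and without either DKO-labelled library of 2i medium (0.57 and 0.70). From there Fn1 fell to 10750 and 11569 at day 2 and 4920 and 5642 at day 4, where the difference from WT did not pass (0.11 ± 0.15, adjusted p = 0.71). Snai2 was higher than in WT cells in 2i medium (14.8 and 11.1 against 2.40 and 1.69). Its call (2.19 ± 0.64, adjusted p = 0.045) was lost without any 1 library of these groups (2.00 to 2.39) and without many libraries of other groups. Limma-voom on recovered reads (2.40, adjusted p = 0.14) and a pseudocount of 4 (1.48, adjusted p = 0.068) also lost it.

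Zeb1 peaked at day 2 in DKO-labelled cells. It read 498 and 480 in 2i medium, 705 and 696 at day 2 and 465 and 529 at day 4. The day 2 libraries lay above all 14 others in the study, and the level was 1.67-fold above WT (0.74 ± 0.14, adjusted p = 0.0018). Within the DKO-labelled course the rise (0.52 ± 0.14, adjusted p = 0.012) and the fall (-0.50 ± 0.14, adjusted p = 0.017) passed. The rise was lost without DKO 2i replicate 2 (0.49) or either day 2 library (0.51 and 0.53), and the fall without either day 2 library (-0.49 and -0.51) or DKO day 4 replicate 1 (-0.40).

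Along their own course 4 of the 10 genes passed in DKO-labelled cells from 2i medium to day 2 (21.5% of all genes) and 7 from day 2 to day 4 (20.1%). Epcam (1.93 ± 0.14, adjusted p = 8.5e-08) and Zeb2 (1.27 ± 0.19, adjusted p = 0.00019) rose in the first step, and Cdh1 fell 5.56-fold in the second (-2.48 ± 0.13, adjusted p = 1.8e-08). Vim read 2947 and 3293, then 3705 and 4209, then 5100 and 6231. Its second step passed (0.51 ± 0.15, adjusted p = 0.023) but not without either library of day 2 (0.42 and 0.61), without DKO day 4 replicate 2 (0.37) or with libraries centred on their median (0.43). The rise of Cdh11 from 5.5 and 1.71 to 22.6 and 26.7 (2.61 ± 0.83, adjusted p = 0.038) rested on 8 reads at day 2, 6 in one library and 2 in the other, and was lost without any 1 of the 4 libraries compared (1.98 to 3.24), without either WT library of day 4 (2.61) or with a pseudocount of 0.1.

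P14 cells lowered Cdh1 by day 4 as WT cells did, but Cdh2, Cdh11, Vim and Zeb2 stayed far below the WT levels. At day 2, 4 of 10 genes passed (8.38% of all genes) and all 4 were lower in P14 cells (4.69% of all genes were). At day 4, 5 of 10 passed (16.2%) and all 5 were lower (8.75%). The WT libraries are shared with the comparison of DKO-labelled cells, so these differences are not independent of those above.

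Cdh1 read 5812 and 4923 at day 2 and 1498 and 1799 at day 4 in P14 libraries. The day 4 range enclosed that of WT cells, with a difference of -0.03 ± 0.13 (adjusted p = 0.94), and at day 2 the difference was -0.20 ± 0.13 (adjusted p = 0.41). The fall within P14 cells was -1.70 ± 0.13 (adjusted p = 3.7e-07). Epcam read 384 and 328, then 218 and 242. It was 2.29-fold below WT at day 2 (-1.19 ± 0.14, adjusted p = 5.3e-05) and 1.85-fold below at day 4 (-0.88 ± 0.14, adjusted p = 0.00034).

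Cdh2 read 251 and 375 at day 2 and 546 and 569 at day 4 in P14 libraries. At day 4 it was 6.74-fold below WT (-2.75 ± 0.19, adjusted p = 1e-07), at a level that overlapped WT cells at day 2. The smaller difference at day 2 (-0.70 ± 0.19, adjusted p = 0.034) was lost on leaving out either WT library (-0.85 and -0.55) or P14 day 2 replicate 1 (-0.41). It was also lost with limma-voom on recovered reads (-0.70, adjusted p = 0.062). The rise of Cdh2 within P14 cells (0.86 ± 0.19, adjusted p = 0.0046) was lost without P14 day 2 replicate 1 (0.57). Cdh11 was at 0 in both day 2 libraries and at 1.83 and 5.03 at day 4, which rest on 2 and 5 reads, against 73 and 69 reads in WT cells (-4.10 ± 0.83, adjusted p = 0.0027, lost with a pseudocount of 0.1). Neuroectoderm markers summed to 1225 to 1534 at day 4 in P14 cells, less than in WT cells, with 3 of 6 lower (8.75% of all genes were) and 0 higher. Their part in the level of Cdh2 was not tested.

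Vim was lowest in P14 cells, where 1257 and 1712 were read at day 2 and 1508 and 1706 at day 4. All 4 libraries lay below the other 12 in the study. The level was 2.55-fold below WT at day 2 (-1.35 ± 0.15, adjusted p = 2.9e-05) and 3.93-fold below at day 4 (-1.98 ± 0.15, adjusted p = 1.9e-07), and it did not change between the days beyond the spread (0.13 ± 0.15, adjusted p = 0.58). Primitive endoderm markers were also lower in P14 than in WT cells. Of 8 such genes 7 were lower than in WT cells on each day and 0 higher, where 4.69% and 8.75% of all genes were lower. Their summed level was 141 to 163 at day 2 and 298 to 328 at day 4 in P14 cells against 1575 to 1826 and 3681 to 3850 in WT cells. In WT cells in 2i medium the same sum was 107 to 150 and Vim stood at 3726 ± 353. At WT day 2, with the sum at 1575 to 1826, Vim stood at 3751 ± 397. At WT day 4, with the sum at 3681 to 3850, it stood at 6319 ± 426. The part of these markers in the level of Vim was not tested.

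**Figure D3:**
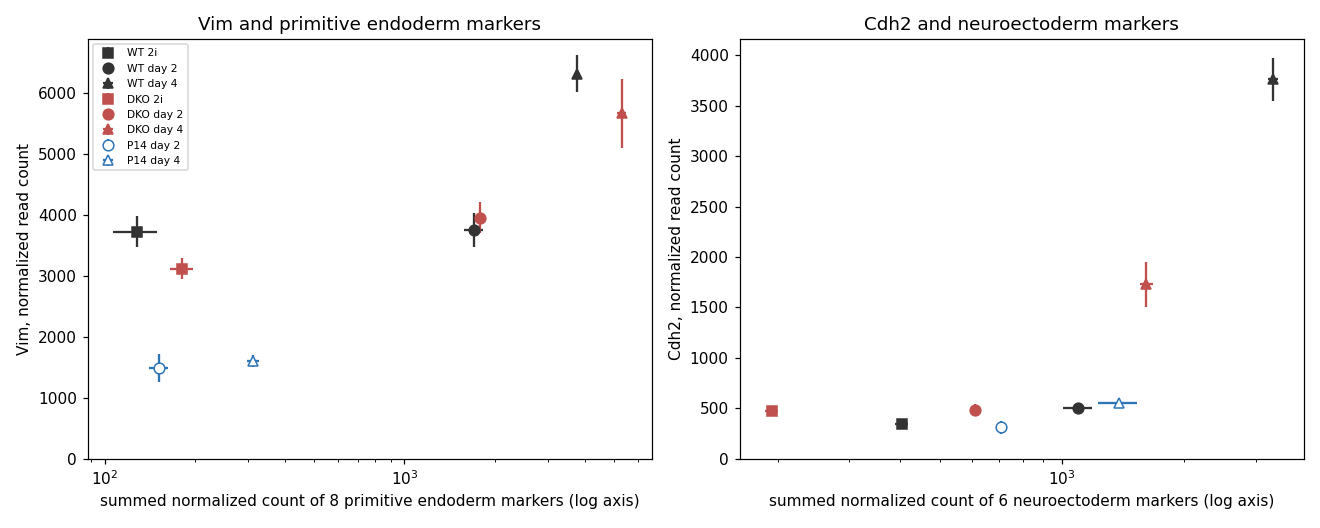
Left, level of Vim against the summed level of 8 primitive endoderm markers, and right, level of Cdh2 against the summed level of 6 neuroectoderm markers, both as normalized read counts with the marker sum on a log axis. Points are group means (n = 2) and bars run from the lower to the higher library. The P14 groups had Vim means of 1484 and 1607 at primitive endoderm sums of 141 to 328. WT cells had Vim means of 3726 in 2i medium at a sum of 107 to 150 and 6319 at day 4 at 3681 to 3850.

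Zeb2 read 64.4 and 67.8 at day 2 and 213 and 245 at day 4 in P14 libraries. It rose between the days by 1.77 ± 0.19 (adjusted p = 1.3e-05) but lay below WT on both, by -1.17 ± 0.19 (adjusted p = 0.0012) and -2.02 ± 0.19 (adjusted p = 2.8e-06). Zeb2os stood at 2.79 ± 2.52 at day 4 against 48.1 ± 14.4 in WT cells (-3.84 ± 0.84, adjusted p = 0.0049). Zeb1 (505 and 459, then 546 and 578), Snai1 (25.2 and 10.3, then 25.6 and 31.2) and Snai2 (13.9 and 4.6, then 6.40 and 9.06) did not pass against WT on either day. Fn1 read 9511 and 6516 at day 2 and 4322 and 4407 at day 4. Its differences from WT were -0.12 ± 0.15 (adjusted p = 0.71) and -0.16 ± 0.15 (adjusted p = 0.57).

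Along the P14 course 5 of the 10 genes passed from day 2 to day 4 (22.5% of all genes), with Cdh2 and Zeb2 higher and Cdh1, Epcam (-0.63 ± 0.14, adjusted p = 0.0045) and Fn1 (-0.85 ± 0.15, adjusted p = 0.00085) lower. Cdh1 fell and Fn1 fell in all 3 kinds of cells between these days.

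Set side by side, P14 cells held more Cdh1 and less Cdh2 than DKO-labelled cells. Against WT cells at day 4, Cdh2 was lower under both labels, and Cdh1 passed only in DKO-labelled cells. Between P14 and DKO-labelled cells 6 of 10 genes passed at day 2 (15.9% of all genes) and 6 at day 4 (13.4%). Cdh1 was 2.50-fold higher in P14 cells at day 2 (1.32 ± 0.13, adjusted p = 5.5e-06) and 4.28-fold higher at day 4 (2.10 ± 0.13, adjusted p = 5e-08). At day 4 Cdh2 was 3.08-fold lower (-1.62 ± 0.19, adjusted p = 3.5e-05), Vim 3.51-fold lower (-1.81 ± 0.15, adjusted p = 8.1e-07) and Epcam 1.69-fold lower (-0.75 ± 0.14, adjusted p = 0.0019). Zeb2 was lower at day 2 (-0.93 ± 0.19, adjusted p = 0.004) and day 4 (-0.87 ± 0.19, adjusted p = 0.0072), the latter lost without DKO day 4 replicate 2 (-0.68) or P14 day 4 replicate 1 (-0.77). The calls of Cdh2, Fn1 and Zeb1 at day 2 and of Cdh11 at day 4 were also lost in some fits. That of Cdh2 (-0.66) was lost without DKO day 2 replicate 2 (-0.51) or P14 day 2 replicate 1 (-0.37). That of Fn1 (-0.50) was lost without either DKO-labelled library (-0.56 and -0.45) or P14 day 2 replicate 2 (-0.23), and with libraries centred on their median (-0.48). That of Zeb1 (-0.54) was lost without either DKO-labelled library (-0.53 and -0.55) or P14 day 2 replicate 2 (-0.47). That of Cdh11 (-2.63, adjusted p = 0.049) was lost in 15 of 24 alternatives, including each that left out a library of these 2 groups (-3.18 to -2.08).

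**Figure D4:**
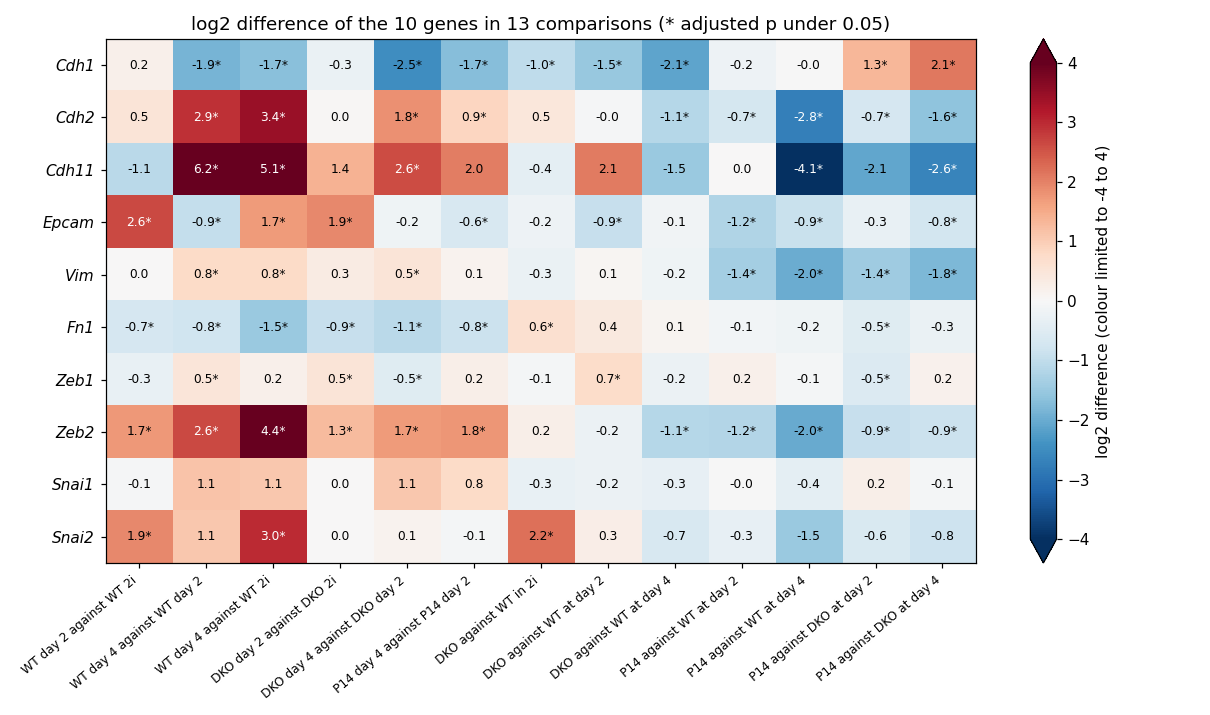
Log2 difference (limma, on log2(value + 1)) of each of the 10 genes (vertical) in the 13 pairwise comparisons (horizontal), with red for higher and blue for lower in the group named first, colour limited to -4 to 4 and an asterisk where the adjusted p is under 0.05. Cdh1 is lower in DKO-labelled than in WT cells at all 3 stages, and Vim is lower in P14 than in WT cells on both days (-1.35 and -1.98).

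The change of Cdh2 from day 2 to day 4 depended on the label. Tests of that dependence ask whether a difference from WT changed between stages. Cdh2 rose less in P14 cells than in WT cells by -2.05 ± 0.27 (adjusted p = 0.00031), the 1 of 10 genes past the threshold there (5.43% of all genes). In DKO-labelled cells it rose less by -1.09 ± 0.27 (adjusted p = 0.021), lost on leaving out replicate 1 of WT day 2 (-0.94) or DKO day 4 (-0.90), or replicate 2 of WT day 4 (-1.01) or DKO day 2 (-0.94). Between these stages 3 of 10 genes passed in DKO-labelled cells (8.6% of all genes). The other two were Zeb1 (-0.98 ± 0.19, adjusted p = 0.0045) and Epcam, which fell in WT cells and not past the threshold in DKO-labelled cells (0.78 ± 0.20, adjusted p = 0.023). The call of Epcam was lost with libraries scaled to an equal total (0.62) and on leaving out either library of WT day 4 (0.83 and 0.73) or of DKO day 2 (0.72 and 0.84), or replicate 1 of WT day 2 (0.70) or of DKO day 4 (0.68). The same interaction of Zeb2 was -0.92 ± 0.28, which did not pass (adjusted p = 0.052) but did in 8 of 24 alternatives (-1.11 to -0.91, adjusted p = 0.023 to 0.049). These include limma-voom on recovered reads (-0.92, adjusted p = 0.023) and leaving out DKO day 4 replicate 2 (-1.11), either DKO-labelled library of 2i medium or either P14 library of day 2 (-0.92). From 2i medium to day 2 the 1 gene of 10 that passed was Zeb1 (0.81 ± 0.19, adjusted p = 0.028; 3.73% of all genes), lost without any 1 of 7 of the 8 libraries involved (0.70 to 0.87), all but WT day 2 replicate 1.

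Other genes of adhesion and transition were read from lists chosen with earlier results of these data known. Between WT day 2 and day 4, 13 of 19 measured genes of mesenchymal matrix and cytoskeleton were higher and 2 lower, where 33.0% of all genes passed in either direction. The median log2 difference was 1.52 against 0.02 over all genes. They include Ncam1, a neural adhesion molecule (6.25-fold higher, 1229 ± 75.5 at day 4), Tagln, an actin-binding protein of smooth muscle (24.8-fold), and the matrix proteases Mmp2 (6.08-fold) and Mmp14 (3.72-fold). The list shares Col1a1, Col1a2, Col3a1, Thy1 and Postn with the fibroblast markers. Of 5 measured fibroblast markers 2 were higher in this step and 0 lower, namely Col1a2 (2.64 ± 2.39 to 61.0 ± 6.92) and Pdgfrb (38.8 ± 0.224 to 150 ± 4.75), and their part in the change of the list was not tested. In WT cells in 2i medium Col1a2 stood at 2.4 ± 3.4, but Pdgfrb at 172 ± 2.26. Of 9 genes for TGF-beta ligands, receptors and SMADs, 8 were higher and 0 lower (median 1.45, against the same 33.0% of all genes), with Smad3, which carries the signal to the nucleus, 3.44-fold and the receptor gene Tgfbr1 2.65-fold higher.

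Beside the falls of Cdh1 and Epcam, the other epithelial genes went both ways in this step. Of 14 tight junction genes 6 were higher and 0 lower (median 0.78), among them F11r (2.08-fold) and Patj (2.61-fold). Of all genes tested 3680 were higher and 3392 lower in this step, or 33.0% in either direction. The count of 6 was smaller without WT day 2 replicate 2 or WT day 4 replicate 2. Of 15 measured epithelial regulators and surface genes 6 were higher and 1 lower, or 4 lower with libraries centred on their median. The simple epithelial keratins Krt8 (3.53-fold, from 279 ± 23.0 to 988 ± 44.7) and Krt18 (3.49-fold) rose, and Grhl3, an epithelial transcription factor, was 2.08-fold lower. In the same step primitive endoderm markers went from a sum of 1575 to 1826 to one of 3681 to 3850 (3 of 8 higher, 1 lower), and trophectoderm markers from 119 to 129 to 357 to 360 (3 of 4 higher, 0 lower), and their part in the keratin levels was not tested. Among 8 other measured transcription factors of the transition 4 were higher and 2 lower, with Twist1 3.11-fold higher (75.0 ± 1.94 to 236 ± 30.7) and Sox9 11.5-fold higher. The higher count was 2 without WT day 2 replicate 2 or either WT library of day 4, and the lower count was 1 with a replicate block, with an equal total per library, and without any 1 library of 5 groups (all of WT, and DKO-labelled cells in 2i medium and at day 2).

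Of 11 genes for catenins and their partners 4 were higher and 2 lower, where 33.0% of all genes passed, among them Ctnnb1, the β-catenin gene, at 14740 ± 400 after a 1.36-fold rise and Jup, the plakoglobin gene, 1.5-fold lower. With libraries centred on their median 2 were higher, and the lower count was 0 with an equal total per library or without WT day 4 replicate 1 and 1 without either WT library of day 2. Of 11 other measured classical cadherins 2 were higher and 1 lower, which is no more than the share of all genes. Cdh4, the R-cadherin gene, rose 2.56-fold to 313 ± 29.4. Leaving out any 1 WT library of day 2 or day 4, or centring libraries on their median, left 1 higher, and the fall of Cdh9 was lost without WT day 2 replicate 2 or WT day 4 replicate 1, or with a pseudocount of 0.1.

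In P14 cells at day 4, where 16.2% of all genes passed against WT and 8.75% were lower, some epithelial and some mesenchymal genes were below WT, while Cdh1 and Fn1 did not pass. Of the 19 matrix and cytoskeleton genes 7 were lower and 3 higher (median -0.86 against 0.00 over all genes), with Ncam1 4.15-fold and Mmp2 3.32-fold lower and Spp1, the osteopontin gene, 2.05-fold higher. The higher count was 1 without either WT library of day 4 or P14 day 4 replicate 2. Of 14 tight junction genes 4 were lower and 0 higher, led by Cldn4, a claudin (18.6 ± 3.48 against 359 ± 6.27). Of 15 epithelial regulators and surface genes 6 were lower and 1 higher (median -0.95), with Krt8 5.50-fold and Krt18 7.24-fold lower. Twist1 was 3.22-fold lower. Of 9 TGF-beta genes 3 were lower and 0 higher, 1 without either WT library of day 4.

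In DKO-labelled cells at day 4, where 13.8% of all genes passed against WT, the matrix and cytoskeleton list had 6 lower and 2 higher of 19 (median -0.59 against -0.03 over all genes), and 3 lower without WT day 4 replicate 2. Mmp2 was 2.83-fold lower and Spp1 2.50-fold higher. Of 9 TGF-beta genes 3 were lower and 0 higher, namely Smad3 (2.06-fold), Smad2 (1.55-fold) and Tgfbr1 (1.68-fold). Of 14 tight junction genes 3 were lower, among them the claudin gene Cldn4 (2.85-fold). That count was smaller without either WT library of day 4. Of all genes tested 1459 were lower and 1491 higher in this comparison.

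Across the 8 group means on the log2 scale, the genes most like each of 5 members were sought among 2214 genes with a mean of at least 100 in a group and a range of at least 2 log2 units. These correlations describe 8 points that share stages and scaling, and carry no test. Cdh1 was most like Cmklr1 (r = 0.93), Myom2 (0.927) and Uba1y (0.914), and most opposed to Naaa (-0.932), Mmp14 (-0.881) and Map3k6 (-0.88). Among the genes most like Cdh2 were Btbd17 (0.985) and St3gal1 (0.978). Btbd17 stood at 31.3 at day 2 and 1280 at day 4 in WT cells, 10.3 and 212 in DKO-labelled cells and 4.25 and 25.2 in P14 cells. Cdh11 was most like Nnat (0.977), Nuak1 (0.967) and Col5a2 (0.962), and Vim most like Lama1 (0.94), Foxa2 (0.93) and Flrt3 (0.929). Lama1, which encodes a laminin chain of basement membranes, stood at 2503 in WT and 161 in P14 cells at day 4. Fn1 was most like Vwf (0.985), its overlapping neighbour Apol7d (0.979) and Ppp1r14d (0.978).

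Among the 10 genes themselves Cdh2 and Cdh11 varied most alike over the group means (r = 0.95), followed by Cdh2 and Zeb2 (0.919). For Cdh1 and Cdh2 the value was -0.669. Zeb2 spanned 21.1-fold from its lowest to its highest group mean, Cdh1 15.9-fold, Cdh2 12.0-fold, and Zeb1 1.67-fold. In order of level, WT cells at day 4 led for Cdh2, followed without overlap by DKO-labelled cells at day 4. P14 day 4, WT day 2, DKO day 2 and DKO 2i came next, each overlapping its neighbour, and WT 2i and P14 day 2 were lowest and overlapped. For Cdh1 WT day 2 led without overlap. P14 day 2 and WT 2i overlapped, then DKO 2i and DKO day 2 followed apart, WT day 4 and P14 day 4 overlapped, and DKO-labelled cells at day 4 stood alone at the bottom.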

How the data were processed

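RNA-seq of 16 libraries was read from 1 table of the authors' gene values. Total RNA went into a stranded Collibri kit, per the labels' protocols, and Trim Galore, HISAT2 and featureCounts with mm10 (GRCm38) are named in the submitters' processing notes, without versions. The deposited values are on a log2 scale. From the values, 4 was added to each normalized read count before the log, and each library has 1 scaling step. The authors' scaling method and the strand setting of the counting are not stated in the labels. Undoing the log gave whole reads for 100% of values under 1000 reads (within 0.1). Entries without a symbol (667 of 22122) held 7.611 to 11.096% of reads.

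Differences were fitted with limma 3.58.1 (R 4.3.3) on log2(value + 1) over all 8 groups, with an intensity trend, for the 21450 genes that reached 1 in 2 or more libraries, in 16 comparisons, 3 of them interactions, with Benjamini-Hochberg adjustment over all genes. On the recovered reads limma-voom called 7267 genes between WT day 2 and day 4, against 7072. The 10 genes, the lists and the tests were chosen with earlier results of these data known. All 10 genes are named in every comparison, and from each list up to 4 called genes of smallest adjusted p. Genes of the miR-200 family and promoter windows of 6 of the 10 genes were not used here. One gene that the rule on likeness to Cdh2 names is not reported here. The reported fit does not pair libraries by replicate number. Alternatives were a replicate block, pseudocounts of 0.1 and 4, other filters, 2 other scalings, limma-voom, and leaving out each library.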

Additional observations from a re-analysis of the deposited data

Results flagged for a closer look

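For 5 gene and stage combinations the difference between a label and WT cells changed between stages by limma's test of the interaction, adjusted over all genes. The rise of Cdh2 from day 2 to day 4 was smaller than in WT cells in P14 cells (-2.05, adjusted p = 0.00031), from 313 ± 87.4 to 557 ± 16.3 against 502 ± 75.0 to 3764 ± 300, and this held in every alternative run. It was also smaller in DKO-labelled cells (-1.09, adjusted p = 0.021), from 489 ± 73.8 to 1731 ± 315, where leaving out replicate 1 of WT day 2 or DKO day 4, or replicate 2 of WT day 4 or DKO day 2, gave -1.01 to -0.90 and adjusted p of 0.082 to 0.11.

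Zeb1 went from 489 ± 12.8 in 2i medium to 701 ± 6.49 at day 2 in DKO-labelled cells and from 514 ± 30.0 to 421 ± 43.2 in WT cells, an interaction of 0.81 (adjusted p = 0.028) that was lost without 7 of the 8 libraries in turn. The return from day 2 to day 4 (-0.98, adjusted p = 0.0045) held in every alternative run. Epcam fell from 814 ± 62.3 to 424 ± 21.4 in WT cells between these days and stood at 433 ± 24.7 and 388 ± 36.9 in DKO-labelled cells (0.78, adjusted p = 0.023). That call was lost with an equal total per library (0.62) and without WT day 2 replicate 1, either library of WT day 4 or DKO day 2, or DKO day 4 replicate 1 (0.68 to 0.84). With 2 libraries a group no library could be tested for standing apart from its own group.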

How the results depend on the processing

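Of 160 pairs of a gene and a comparison, 71 passed in the reported fit. Of these 51 passed in all 24 alternatives and 20 were lost in at least 1, while 77 pairs passed in no fit. No direction of the 83 pairs that passed in any fit reversed. Correlations of same-numbered deviations ran from -0.089 to 0.157 over 28 pairs of groups, which cannot exclude a batch shared by replicate number. Replicate 1 held fewer recovered reads than replicate 2 in every group, for example 21218125 against 31392909 in WT cells in 2i medium. A replicate block added 2 calls and removed 2 of the 71. It added Cdh2 between DKO-labelled and WT cells in 2i medium (0.45, adjusted p = 0.042) and between WT 2i and day 2 (0.53, adjusted p = 0.0074). It removed Cdh11 between P14 and DKO-labelled cells at day 4 (-2.63, adjusted p = 0.051) and Snai2 between DKO-labelled and WT cells in 2i medium (2.19, adjusted p = 0.054). A pseudocount of 4 raised the genes of the 10 that passed in the interaction from day 2 to day 4 from 3 to 5 for DKO-labelled and from 1 to 2 for P14 cells.

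Leaving out 1 library moved some counts by over 1.5 times. Of the 10 genes, 4 to 7 passed in DKO-labelled cells from day 2 to day 4, 1 to 3 between DKO-labelled and WT cells in 2i medium, 3 to 6 between P14 and DKO-labelled cells at day 2, and 0 to 2, 1 to 5 and 1 to 2 in the DKO interactions of the first and second step and the P14 interaction. Of all genes 2904 to 5055 (4610 with all libraries) and 2392 to 4767 (4304) passed in the DKO steps, 3112 to 4962 (4817) in the P14 step, 877 to 2069 (1859), 1336 to 3050 (2707) and 1659 to 3412 (2950) for DKO-labelled against WT cells by stage, 858 to 2655 (1797) and 2140 to 3800 (3471) for P14 against WT, 1948 to 3592 (3407) and 1681 to 3261 (2866) for P14 against DKO-labelled cells, and 453 to 984 (801), 1070 to 2227 (1845) and 695 to 1944 (1165) for the interactions. Without correction for exon length the ratio of Cdh2 to Cdh1 was 0.0654, 0.0824 and 2.25 in WT cells by stage, 0.182, 0.229 and 4.48 in DKO-labelled cells, and 0.0597 and 0.34 in P14 cells.

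The median log2 difference of all genes between WT day 2 and day 4 was 0.02 as reported, -0.16 with libraries centred on their median and 0.13 with an equal total per library. Cdh11, Snai1 and Snai2 rest on few reads, with standard errors of 0.83, 0.53 and 0.64 on the log2 scale against 0.13 to 0.19 for the other 7 genes.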
